A study of Macaca mulatta with 14 samples.

Results

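This comparison set 2 colonies of rhesus macaque (Macaca mulatta) neuroepithelial stem cells (NESCs), C8-P7 and A9-P7, each grown from a single cell, against CHIR-P23, the NESC culture from which the single cells had been taken. It used 6 of the 14 RNA sequencing libraries of the series, 2 for each of these 3 cell lines, chosen by their labels and not by any measured value. The other 8 libraries belong to the fibroblasts (RF-P3), days 5 and 11 of the conversion (RF-iN-d5 and RF-iN-d11) and NESCs at passage 6 (CHIR-P6), and served only to show where a gene had been high before. RF-P3 are ear skin fibroblasts of 2 male fetuses of 65 embryonic days, taken before the conversion, and the other lines came from such fibroblasts after infection with retroviruses carrying rhesus SOX2, OCT4 (POU5F1) and KLF4. CHIR-P23 and both colonies were grown on laminin in the same medium, which by the labels held 3 µM CHIR99021 (a GSK3 inhibitor that activates WNT signalling), 5 µM SB431542 (an inhibitor of the TGF-beta type I receptors), human LIF at 1000 U/ml and bFGF at 10 ng/ml. The methods of the study list this medium without CHIR99021. CHIR-P23 was a mixed culture at passage 23, and the colonies came from its dissociated cells in 96-well plates. The names of the colonies carry passage 7 and their passage label gives 23, so the passages after cloning are not clear from the labels. Effects of cloning and of the culture after it cannot be told apart, and the colonies are 2 clones from 1 conversion.

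NESCs are early neural progenitors. They form a polarised epithelium, carry SOX2, NES and PAX6, and in culture are kept by WNT activation and TGF-beta inhibition with FGF. A colony grown from a single cell holds the descendants of that cell alone, whereas the parental culture is a mixture. In a bulk library, fewer cells of a kind and less RNA per cell cannot be told apart.

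The measure was FPKM, the number of fragments of a gene scaled to its transcript length and to the depth of the library. Most values of the deposited table stood 1 position below their gene label and were moved back before use. The libraries of a line differed from each other by less than sampling noise, so their average was used as 1 sample. Where a pair of values is given for a line, these are its libraries, and a single value is their average. Differences are given on log2(FPKM + 1), which understates the change of low genes, and a gene was counted when it differed from CHIR-P23 by at least 2-fold on that scale in the same direction in both colonies. Of 12805 genes that reached 1 FPKM in at least 2 of the 6 libraries, 157 were higher (1.23%) and 357 lower (2.79%) in C8-P7, and 236 were higher (1.84%) and 387 lower (3.02%) in A9-P7. Both colonies shared 47 higher genes (0.367%) and 234 lower genes (1.83%), and 13 genes (0.102%) differed in opposite directions. Both comparisons use the same CHIR-P23 libraries, so a deviation of CHIR-P23 alone enters both. The median difference over all genes was 0.0308 in C8-P7 and 0.00354 in A9-P7. Of the 6799 genes at 10 FPKM or more in CHIR-P23, 6618 (97.3%) were within 2-fold in both colonies.

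With 2 colony averages against 1 parental average, limma had 1 residual degree of freedom. It called none of the 12805 genes at a Benjamini-Hochberg adjusted p under 0.05 (0% called). The shared differences are therefore a description. Relative depth, read from the steps between low FPKM values, was 1.27 in C8-P7, 4.74 in CHIR-P23 and 5.31 in A9-P7 (RF-P3 = 1), and a single step was worth a median of 0.0580 FPKM in C8-P7, 0.0157 in CHIR-P23 and 0.0142 in A9-P7. A low value in C8-P7 is thus the least precise. At the limit, PNCK (1.001) and BHLHE22 (0.983) lay just inside and just outside on the higher side, and LAMA4 (-1.002) just inside on the lower side, each by its smaller log2 difference.

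**Figure D1:**
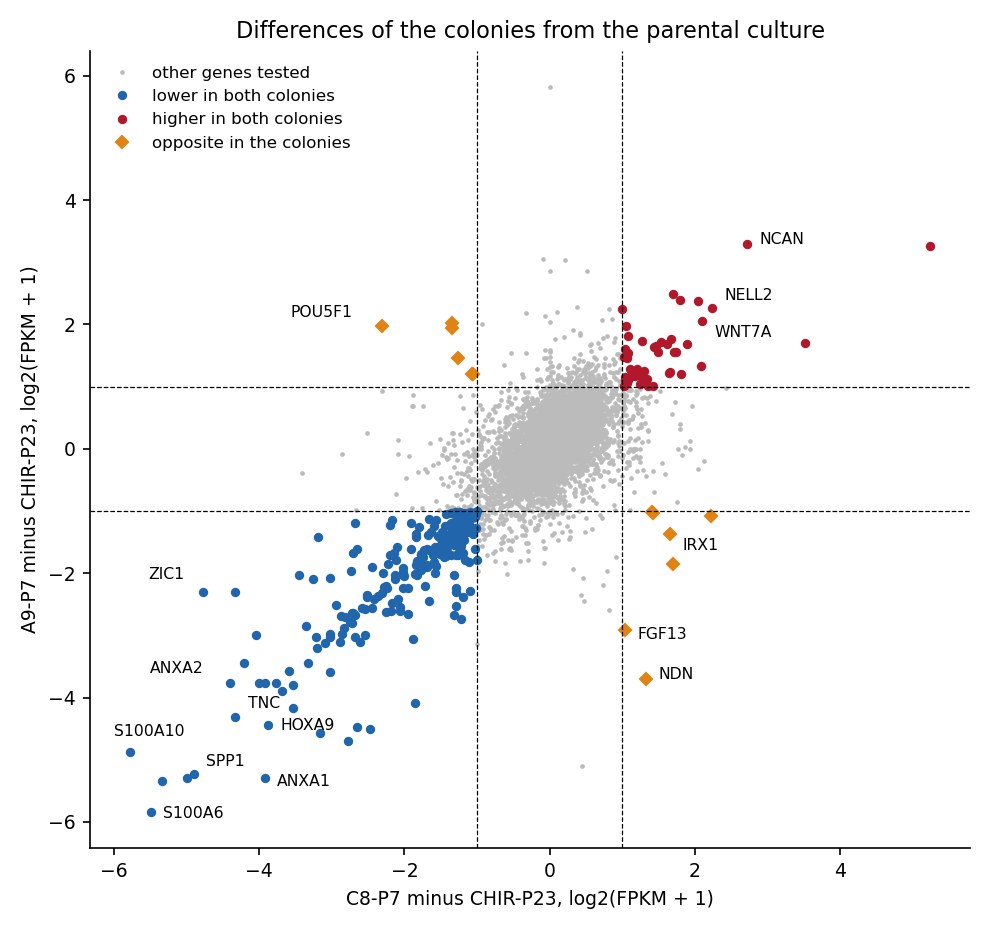
Difference of each gene from CHIR-P23 on log2(FPKM + 1), with C8-P7 on the x axis and A9-P7 on the y axis; each point is 1 of 12805 genes and dashed lines mark the 2-fold limit. The 234 genes lower in both colonies reach further from 0 than the 47 higher ones, and 13 genes lie in the corners of opposite direction.

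The lower genes went further than the higher ones. Of the 234 lower genes, 73 were at least 4-fold and 24 at least 8-fold lower in both colonies, against 5 and 1 of the 47 higher genes. In both colonies, 154 of the lower genes were under 1 FPKM, 17 of them from 10 FPKM or more in CHIR-P23. Genes this low in the colonies passed the filter through CHIR-P23, so these counts only describe the genes chosen. In the table, 22 of the lower genes are listed at 0 in all 4 colony libraries.

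S100 proteins are small calcium-binding proteins, and annexins bind membranes in a calcium-dependent way. S100A6 was at 65.4 and 65.03 FPKM in CHIR-P23 against 0.467 and 0.464 in C8-P7 and 0.107 and 0.215 in A9-P7. S100A11 was at 44.6 and 43.3 FPKM in CHIR-P23 against 0.408 and 0.406 in C8-P7 and 0.189 and 0.0945 in A9-P7. S100A10, which forms a complex with annexin A2, was at 168 and 170.2 FPKM in CHIR-P23 against 1.97 and 2.24 in C8-P7 and 4.75 and 4.82 in A9-P7. All 4 colony libraries were far below both CHIR-P23 libraries for the 3 genes, with a log2 difference of -5.497 for C8-P7 and -5.83 for A9-P7 for S100A6, -4.998 for C8-P7 and -5.30 for A9-P7 for S100A11 and -5.78 for C8-P7 and -4.88 for A9-P7 for S100A10. ANXA2, the partner of S100A10, was at 303 FPKM in CHIR-P23 against 13.3 in C8-P7 and 21.3 in A9-P7. ANXA1, known for its anti-inflammatory role, was at 42.2 FPKM in CHIR-P23 against 1.84 in C8-P7 and 0.108 in A9-P7, lowest in A9-P7. S100A4 (9.35 FPKM in CHIR-P23 against 0.346 in C8-P7 and 0.808 in A9-P7) and S100A16 (11.8 FPKM in CHIR-P23 against 0.247 in C8-P7 and 0.782 in A9-P7) were lower as well. S100A13 was not lower (36.6 FPKM in CHIR-P23 against 35.6 in C8-P7 and 52.1 in A9-P7). Of the S100 genes tested, 5 of 6 were lower in both colonies, and of the annexins 2 of 9, with ANXA5 (136 FPKM in CHIR-P23 against 118 in C8-P7 and 142 in A9-P7) and ANXA6 (36.4 FPKM in CHIR-P23 against 36.8 in C8-P7 and 40.8 in A9-P7) near their parental level. These lists, like those of the caveolar genes, galectins and ZIC genes below, were put together after the values were seen. Over all genes tested, 1.83% were lower in both colonies.

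The scaffold of caveolae, the flask-shaped pits of the plasma membrane, is made of caveolins and cavins. PTRF (cavin 1) was at 11.02 FPKM in both libraries of CHIR-P23 against 0 in both libraries of C8-P7 and 0 and 0.0179 in A9-P7. SDPR (cavin 2) was at 12.6 and 12.7 FPKM in the CHIR-P23 libraries and is listed at 0 in all 4 colony libraries. PRKCDBP (cavin 3) was at 5.58 FPKM in CHIR-P23 against 0 in C8-P7 and 0.0571 in A9-P7. Thus the 3 cavins were at or near 0 in both clones. CAV1, which encodes the structural protein caveolin 1, went a different way in each colony, with 19.9 and 19.6 FPKM in CHIR-P23 against 43.7 and 43.8 in C8-P7 and 9.53 and 9.41 in A9-P7. C8-P7 was above and A9-P7 below the parental culture.

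Galectins bind beta-galactoside sugars. LGALS1 was at 229 and 232 FPKM in CHIR-P23 against 24.3 and 22.3 in C8-P7 and 53.3 and 53.04 in A9-P7. LGALS3 was at 38.8 FPKM in CHIR-P23 against 3.89 in C8-P7 and 2.31 in A9-P7. Both stayed above 2 FPKM in both colonies. Of 3 galectins tested, LGALS8 was the one not lower by 2-fold (4.43 FPKM in CHIR-P23 against 3.17 in C8-P7 and 3.53 in A9-P7). Single genes of the cell surface and the extracellular matrix were lower too, and are named here one by one and not as a group. CD44, a hyaluronan receptor, was at 14.2 FPKM in CHIR-P23 against 0.179 in C8-P7 and 0.0185 in A9-P7. TNC, a matrix glycoprotein of wounds and of neural stem cell niches, was at 20.2 and 20.3 FPKM in CHIR-P23 against 0.0582 and 0.0579 in C8-P7 and 0.0748 and 0.0749 in A9-P7. SPP1, which encodes osteopontin, was at 119 FPKM in both libraries of CHIR-P23 against 3.07 and 2.95 in C8-P7 and 2.19 in both libraries of A9-P7. IFITM1, an interferon-induced transmembrane protein, was at 15.1 FPKM in CHIR-P23 against 0 in C8-P7 and 0.186 in A9-P7. It alone of 10 interferon genes tested was lower in both, against 1.83% of all genes tested. In limma, the adjusted p was 0.094 for S100A6 (log2 -5.67, SE 0.25), 0.14 for TNC (log2 -4.32, SE 0.25) and 0.094 for SPP1 (log2 -5.07, SE 0.21), none of which passed 0.05.

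**Figure D2:**
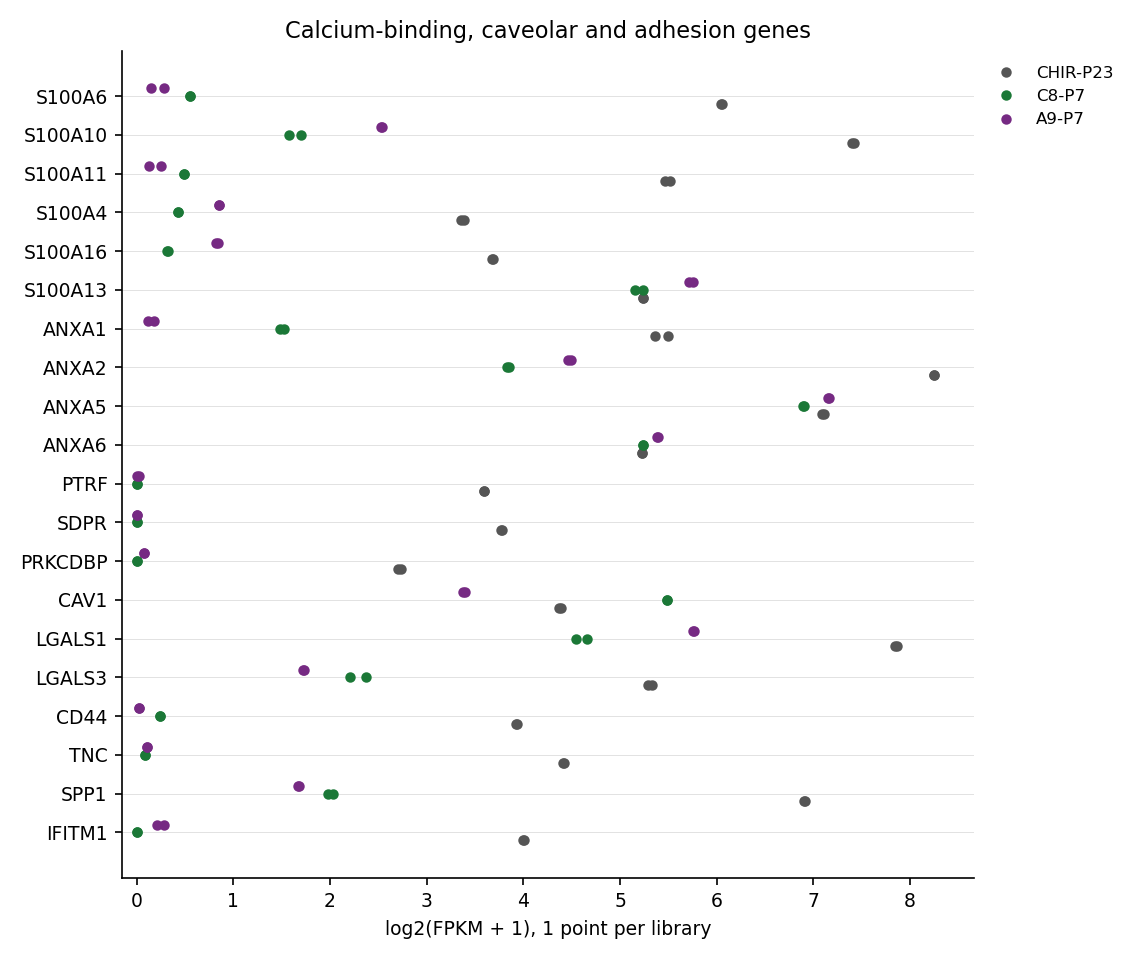
Log2(FPKM + 1) (x axis) of 20 genes of the S100, annexin, caveolar, galectin and adhesion groups, with 1 point per library of CHIR-P23 (grey), C8-P7 (green) and A9-P7 (purple). For 16 genes the 4 colony libraries lie far to the left of both parental ones, whereas S100A13, ANXA5 and ANXA6 do not and CAV1 splits the colonies.

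Genes of the other cell types that the culture could hold were examined as lists, beside the 1.83% of all genes lower in both colonies. Lower genes under 1 FPKM in both colonies passed the filter through CHIR-P23 alone, so counts that hold them are only descriptive. Of 18 fibroblast genes tested, 5 were lower and 0 higher in both colonies (median difference -0.71 for C8-P7 and -0.96 for A9-P7). Their summed level was 15651 FPKM in RF-P3, 297 in CHIR-P23 and, in the colonies, 271 in C8-P7 and 140.1 in A9-P7. COL1A1 and COL1A2, which encode type I collagen, did not pass the filter on low values, with 0.504 FPKM in CHIR-P23 against 0.791 in C8-P7 and 0.135 in A9-P7 and 0.0838 FPKM in CHIR-P23 against 0.741 in C8-P7 and 0.118 in A9-P7 respectively. The 5 lower ones were CD44, S100A4, TWIST2, a mesenchymal transcription factor (5.62 FPKM in CHIR-P23 against 0.465 in C8-P7 and 0.192 in A9-P7), ACTA2, which encodes smooth muscle actin (10.6 FPKM in CHIR-P23 against 1.78 in C8-P7 and 0.903 in A9-P7), and THY1, a surface antigen of fibroblasts (3.32 FPKM in CHIR-P23 against 0.920 in C8-P7 and 0.259 in A9-P7). LOC722014, which RefSeq names COL5A1 and the list does not count, was lower too (4.62 FPKM in CHIR-P23 against 0.184 in C8-P7 and 0.221 in A9-P7). Without the 2-fold limit, 11 of the 18 genes lay below CHIR-P23 in both colonies and 0 above it in both. Over all genes tested, 32.9% lay below and 38.6% above in both. COL6A1 was lower but short of the 2-fold limit (14.1 FPKM in CHIR-P23 against 6.55 in C8-P7 and 7.45 in A9-P7). Some other fibroblast genes did not follow. FN1, which encodes fibronectin, was at 11.2 FPKM in CHIR-P23 against 10.9 in C8-P7 and 13.98 in A9-P7, and MMP2, a matrix protease, at 31.01 FPKM in CHIR-P23 against 29.3 in C8-P7 and 39.01 in A9-P7. SPARC, a matrix glycoprotein with the highest level of the list in CHIR-P23, was at 88.5 FPKM in CHIR-P23 against 108 in C8-P7 and 32.6 in A9-P7, and TAGLN, of the contractile cytoskeleton, at 61.7 FPKM in CHIR-P23 against 84.7 in C8-P7 and 0.824 in A9-P7. These 2 genes were at least 2-fold lower than CHIR-P23 in A9-P7 only.

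Of 12 neural crest genes tested, 5 were lower in both colonies, all under 4 FPKM in CHIR-P23. The median of the list was -0.71 for C8-P7 and -0.997 for A9-P7. These 5 were under 1 FPKM in both colonies and passed the filter through CHIR-P23 alone, so this count is only descriptive. They were TFAP2B (3.25 FPKM in CHIR-P23 against 0.200 in C8-P7 and 0.0407 in A9-P7), SNAI2, a factor of delamination (1.65 FPKM in CHIR-P23 against 0 in C8-P7 and 0.0165 in A9-P7), ETS1 (1.80 FPKM in CHIR-P23 against 0.183 in C8-P7 and 0.0289 in A9-P7), MSX2 (1.30 FPKM in CHIR-P23 against 0 in C8-P7 and 0.0346 in A9-P7) and TFAP2A (1.07 FPKM in CHIR-P23 against 0 in C8-P7 and 0 in A9-P7). PAX3, which is shared with the dorsal neural tube, had the highest level of the list and was at 14.6 FPKM in CHIR-P23 against 26.4 in C8-P7 and 1.59 in A9-P7. Of 4 mesoderm genes tested, HAND1 (3.36 FPKM in CHIR-P23 against 0 in C8-P7 and 0.0173 in A9-P7) and DES, which encodes desmin (12.98 FPKM in CHIR-P23 against 0.282 in C8-P7 and 2.42 in A9-P7), were lower, and MEOX1 and FOXC1 were not. Of 5 surface epithelium genes, KRT8 (72.9 FPKM in CHIR-P23 against 18.99 in C8-P7 and 7.90 in A9-P7) and KRT5 (2.55 FPKM in CHIR-P23 against 0 in C8-P7 and 0 in A9-P7) were lower. The endothelial and blood list had no gene past the filter on low values, and its summed level was 2.03 FPKM in CHIR-P23 against 1.02 in C8-P7 and 0.673 in A9-P7. Any part of other cell types in the lower genes was not tested. Of 14 radial glia genes, TNC, the secreted chaperone CLU (76.0 FPKM in CHIR-P23 against 12.9 in C8-P7 and 2.40 in A9-P7) and NFIB, a factor of glial differentiation (2.18 FPKM in CHIR-P23 against 0.0505 in C8-P7 and 0.00698 in A9-P7), were lower, and VIM, with the highest level of the list, was at 666 FPKM in CHIR-P23 against 679 in C8-P7 and 471 in A9-P7.

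Further lower genes, chosen after their values were seen, belong to the cytoskeleton, the nucleus and the stress response. AHNAK, a giant scaffold protein that binds S100A10, was at 9.84 FPKM in CHIR-P23 against 0.646 in C8-P7 and 0.549 in A9-P7, and TAGLN2, an actin-binding protein, at 63.8 FPKM in CHIR-P23 against 9.32 in C8-P7 and 1.93 in A9-P7. LMNA, which encodes the lamins A and C of the nuclear envelope, was at 37.9 FPKM in CHIR-P23 against 15.2 in C8-P7 and 15.4 in A9-P7. IFI16, a sensor of DNA in the nucleus, was at 65.7 FPKM in CHIR-P23 against 6.41 in C8-P7 and 1.82 in A9-P7, and MT2A, a metal-binding metallothionein, at 70.3 FPKM in CHIR-P23 against 9.44 in C8-P7 and 1.75 in A9-P7. A2M, a protease inhibitor, was at 39.7 FPKM in CHIR-P23 against 9.49 in C8-P7 and 5.48 in A9-P7, after 257 FPKM in CHIR-P6. LMNA and A2M were lower but still above 5 FPKM in both colonies.

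HOX genes encode homeodomain factors that give cells their position along the body axis, with genes of low number used further towards the head. Of 13 HOX genes tested, 4 were lower in both colonies, all of them HOXA genes, against 1.83% of all genes tested. Without the 2-fold limit, 6 HOX genes lay above CHIR-P23 in both colonies and 6 below it in both. HOXA9 was at 24.3 and 24.2 FPKM in CHIR-P23 against 0.729 and 0.687 in C8-P7 and 0.157 in both libraries of A9-P7. HOXA7 was at 12.1 and 11.9 FPKM in CHIR-P23 against 1.24 and 1.23 in C8-P7 and 0.604 and 0.646 in A9-P7. HOXA5 (3.94 FPKM in CHIR-P23 against 0.272 in C8-P7 and 0.0511 in A9-P7) and HOXA10 (1.54 FPKM in CHIR-P23 against 0.0152 in C8-P7 and 0 in A9-P7) were lower too, from lower parental levels. Neither HOXA2 nor HOXA3 was lower in both colonies, and HOXA2 was at 5.18 FPKM in CHIR-P23 against 11.1 in C8-P7 and 9.63 in A9-P7. HOXB2 (28.2 FPKM in CHIR-P23 against 45.7 in C8-P7 and 38.04 in A9-P7), HOXB3 (14.2 FPKM in CHIR-P23 against 25.8 in C8-P7 and 31.1 in A9-P7), HOXB4 (13.5 FPKM in CHIR-P23 against 20.2 in C8-P7 and 21.7 in A9-P7) and HOXD3 (4.11 FPKM in CHIR-P23 against 6.31 in C8-P7 and 8.25 in A9-P7) lay above the parental level by less than 2-fold in at least 1 colony. HOXD8 (5.64 FPKM in CHIR-P23 against 3.49 in C8-P7 and 1.75 in A9-P7) and HOXD9 (1.03 FPKM in CHIR-P23 against 0.174 in C8-P7 and 0.00648 in A9-P7) lay below it, without reaching 2-fold in both. From 1.03 FPKM, HOXD9 could reach 2-fold on log2(FPKM + 1) only by an almost full loss. Its absence from the lower genes thus depends on that scale. In limma the adjusted p was 0.17 for HOXA9 (log2 -4.17, SE 0.33) and 0.22 for HOXA7 (log2 -2.77, SE 0.301).

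**Figure D3:**
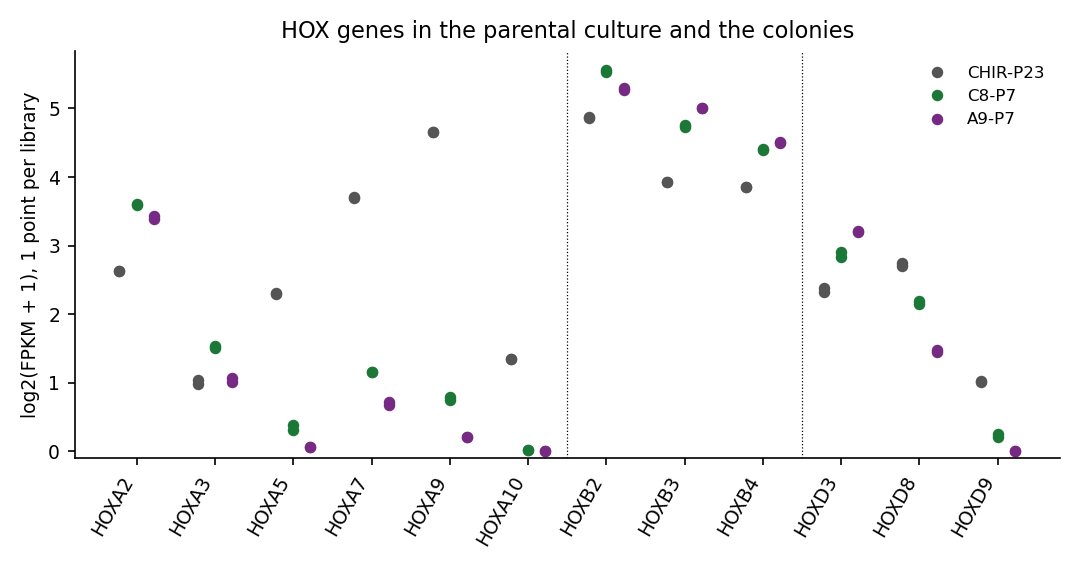
Log2(FPKM + 1) (y axis) of 12 of the 13 HOX genes tested, with 1 point per library of CHIR-P23 (grey), C8-P7 (green) and A9-P7 (purple); dotted lines separate the HOXA, HOXB and HOXD genes. HOXA5, HOXA7, HOXA9 and HOXA10 lie below the parental points in both colonies, while the colony points of HOXA2, HOXB2, HOXB3, HOXB4 and HOXD3 lie above the parental ones.

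The ZIC genes, zinc finger factors of the dorsal neural tube, were also divided. ZIC1 was at 29.3 and 29.2 FPKM in CHIR-P23 against 0.121 and 0.0803 in C8-P7 and 5.20 and 5.14 in A9-P7. ZIC4, the neighbour of ZIC1 in the genome, was at 5.86 FPKM in CHIR-P23 against 0.0295 in C8-P7 and 0.751 in A9-P7. ZIC2 (18.3 FPKM in CHIR-P23 against 13.8 in C8-P7 and 20.2 in A9-P7) and ZIC5 (4.08 FPKM in CHIR-P23 against 2.64 in C8-P7 and 2.56 in A9-P7) did not reach 2-fold in either colony. Of 12 dorsal and ventral factors tested, 4 were lower in both colonies (ZIC1, ZIC4 and MSX2 among them) and none was higher, with PTCH1 at 20.1 FPKM in CHIR-P23 against 32.2 in C8-P7 and 31.5 in A9-P7 and PAX7 at 2.31 FPKM in CHIR-P23 against 8.501 in C8-P7 and 5.27 in A9-P7. Over all genes tested, 1.83% were lower and 0.367% higher in both colonies. None of 7 midbrain and hindbrain factors and none of 5 forebrain factors differed by 2-fold in the same direction in both colonies. Among the former, IRX3 (18.9 FPKM in CHIR-P23 against 30.6 in C8-P7 and 39.5 in A9-P7), IRX5 (10.9 FPKM in CHIR-P23 against 18.4 in C8-P7 and 19.7 in A9-P7), MEIS1 (11.3 FPKM in CHIR-P23 against 17.8 in C8-P7 and 18.9 in A9-P7) and MEIS2 (32.3 FPKM in CHIR-P23 against 44.1 in C8-P7 and 62.9 in A9-P7) lay above the parental level in both colonies, and IRX3 alone of these reached 2-fold, in A9-P7.

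Signalling genes of several pathways were among the lower ones. The counts of these lists can be read against 1.83% lower and 0.367% higher in both colonies over all genes tested. WNT8A, a ligand of early WNT signalling, was at 6.06 FPKM in CHIR-P23 against 0 in C8-P7 and 0.0883 in A9-P7, after 96.0 FPKM in CHIR-P6. SP5 (2.096 FPKM in CHIR-P23 against 0.135 in C8-P7 and 0.0323 in A9-P7), RNF43, which removes WNT receptors from the membrane (1.85 FPKM in CHIR-P23 against 0.0346 in C8-P7 and 0.0543 in A9-P7), and BAMBI, a decoy receptor of TGF-beta and BMP (1.14 FPKM in CHIR-P23 against 0 in C8-P7 and 0.0567 in A9-P7), are targets of WNT signalling and were lower in both colonies. AXIN2 (15.9 FPKM in CHIR-P23 against 15.2 in C8-P7 and 15.6 in A9-P7), a general WNT target, and LGR5 (15.8 FPKM in CHIR-P23 against 16.1 in C8-P7 and 12.2 in A9-P7), a receptor of R-spondins, were within 2-fold. Of 16 WNT targets and inhibitors tested, 3 were lower and 1 was higher, the zinc finger factor SP8. Of 28 BMP and TGF-beta genes, the ligand BMP5 (6.30 FPKM in CHIR-P23 against 0 in C8-P7 and 0.139 in A9-P7) and the type II receptor TGFBR2 (5.86 FPKM in CHIR-P23 against 1.57 in C8-P7 and 1.18 in A9-P7) were lower. Among the targets of FGF and MAPK signalling, ETV5, an ETS factor (7.13 FPKM in CHIR-P23 against 2.57 in C8-P7 and 1.54 in A9-P7), and FOSL1, an AP-1 subunit (2.96 FPKM in CHIR-P23 against 0.467 in C8-P7 and 0.236 in A9-P7), were lower, 2 of 21 genes. KITLG, the ligand of the KIT receptor, was at 20.04 FPKM in CHIR-P23 against 0.822 in C8-P7 and 0.177 in A9-P7, and NTRK2, the receptor of BDNF, at 24.9 FPKM in CHIR-P23 against 2.497 in C8-P7 and 2.03 in A9-P7. MYC was at 140.0 FPKM in CHIR-P23 against 66.7 in C8-P7 and 81.9 in A9-P7, a difference that reached 2-fold in C8-P7 only.

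Of 49 axon guidance genes, 6 were lower in both colonies and 1 was higher, against 1.83% and 0.367% of all genes tested. Without the 2-fold limit, 19 of them lay above CHIR-P23 in both colonies and 19 below it in both. The median difference of the list was -0.049 for C8-P7 and 0.069 for A9-P7. NRP2, a receptor of class 3 semaphorins, was at 12.6 FPKM in both libraries of CHIR-P23 against 0.468 and 0.447 in C8-P7 and 0.678 and 0.6747 in A9-P7. SEMA3D (5.97 FPKM in CHIR-P23 against 0.222 in C8-P7 and 0.361 in A9-P7) and SEMA3C (15.4 FPKM in CHIR-P23 against 4.88 in C8-P7 and 5.49 in A9-P7), which are such semaphorins, were lower as well. EPHA3, an ephrin receptor (8.31 FPKM in CHIR-P23 against 0.701 in C8-P7 and 1.48 in A9-P7), SLIT2, a ligand of ROBO receptors (3.27 FPKM in CHIR-P23 against 0.446 in C8-P7 and 0.160 in A9-P7), and UNC5B, a netrin receptor (6.58 FPKM in CHIR-P23 against 1.01 in C8-P7 and 2.31 in A9-P7), completed the lower genes. NTN1, which encodes the ligand netrin 1, was higher (11.01 FPKM in CHIR-P23 against 29.4 in C8-P7 and 25.1 in A9-P7). Of 22 collagen and basement membrane genes, 5 were lower (COL2A1, COL11A1, COL14A1, NID2 and LAMA4). Without the 2-fold limit, 9 genes of this list lay above CHIR-P23 in both colonies and 10 below it in both. COL2A1, the chain of type II collagen, was at 53.9 FPKM in CHIR-P23 against 4.996 in C8-P7 and 19.6 in A9-P7, well above its 0.0305 FPKM in RF-P3 in both colonies, and COL4A2, of the basement membrane, was at 63.1 FPKM in CHIR-P23 against 78.0 in C8-P7 and 87.5 in A9-P7.

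Genes higher in both colonies included several of neural progenitors and neurons. NCAN, which encodes the proteoglycan neurocan of neural tissue, was at 1.70 and 1.64 FPKM in CHIR-P23 against 16.8 and 16.5 in C8-P7 and 25.1 and 25.2 in A9-P7. NELL2, a secreted protein of neurons, was at 10.7 and 10.9 FPKM in CHIR-P23 against 54.6 in both libraries of C8-P7 and 55.6 and 55.7 in A9-P7. WNT7A, a ligand of the neural epithelium, was at 3.44 and 3.24 FPKM in CHIR-P23 against 17.5 and 17.7 in C8-P7 and 17.05 and 17.2 in A9-P7. For each of the 3 genes all 4 colony libraries lay above both CHIR-P23 libraries, by a log2 difference of 2.72 for C8-P7 and 3.29 for A9-P7 for NCAN, 2.24 for C8-P7 and 2.26 for A9-P7 for NELL2 and 2.1 for C8-P7 and 2.06 for A9-P7 for WNT7A. ELAVL2, a neuronal RNA-binding protein, was at 3.93 FPKM in CHIR-P23 against 17.3 in C8-P7 and 14.9 in A9-P7, and INA, a neuronal intermediate filament, at 32.2 FPKM in CHIR-P23 against 72.4 in C8-P7 and 73.5 in A9-P7. SP8, a factor of brain and limb patterning, was at 6.89 FPKM in CHIR-P23 against 24.2 in C8-P7 and 25.9 in A9-P7, and VAX2, a homeodomain factor known from the ventral eye, at 3.01 FPKM in CHIR-P23 against 10.1 in C8-P7 and 11.7 in A9-P7. CPLX2, which acts in synaptic vesicle release, was at 6.16 FPKM in CHIR-P23 against 19.1 in C8-P7 and 20.2 in A9-P7, CAMK2N1, an inhibitor of CaMKII, at 5.81 FPKM in CHIR-P23 against 21.4 in C8-P7 and 18.96 in A9-P7, and NSG1, a protein of neuronal endosomes, at 6.77 FPKM in CHIR-P23 against 20.02 in C8-P7 and 23.2 in A9-P7. SCN7A, a sodium channel subunit, was at 6.37 FPKM in CHIR-P23 against 24.8 in C8-P7 and 15.9 in A9-P7, and CA8, a carbonic anhydrase-related protein of Purkinje cells, at 5.12 FPKM in CHIR-P23 against 12.5 in C8-P7 and 13.4 in A9-P7. In limma, the adjusted p was 0.14 for NELL2 (log2 2.25, SE 0.14), 0.17 for WNT7A (log2 2.08, SE 0.16) and 0.2 for NCAN (log2 3.01, SE 0.29).

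Many of the higher genes had been low in the fibroblasts: 28 of 47 (59.6%) were under 1 FPKM in RF-P3, against 12.8% of all genes tested. Another 9 (19.1%) were at 10 FPKM or more in RF-P3, against 54.4% of all genes tested. Among these, NSG1 (142 FPKM) and CAMK2N1 (112 FPKM) were higher in RF-P3 than in either colony. The largest shared difference among the higher genes belonged to a locus without a gene name, LOC106993035, which is listed at 0 FPKM in CHIR-P23 and was at 36.8 FPKM in C8-P7 and 8.59 in A9-P7. DLK1, an imprinted gene of the NOTCH ligand family, was higher from a low level (0.694 FPKM in CHIR-P23 against 4.31 in C8-P7 and 2.97 in A9-P7), and the imprinted NNAT was lower (8.38 FPKM in CHIR-P23 against 0.990 in C8-P7 and 0.980 in A9-P7) as the shared genes among 16 imprinted genes tested. Of 21 neuronal genes, INA and ELAVL2 were higher, and 2 were lower in both colonies, among them NEUROG2 (2.21 FPKM in CHIR-P23 against 0 in C8-P7 and 0.224 in A9-P7), which starts neuronal differentiation. In all, 0.367% of the genes tested were higher and 1.83% lower. Without the 2-fold limit, 12 genes of the list lay above CHIR-P23 in both colonies and 6 below it in both, against 38.6% and 32.9% of all genes tested. TUBB3, with the highest level of the list, was at 174 FPKM in CHIR-P23 against 261 in C8-P7 and 214 in A9-P7, and STMN2 at 9.87 FPKM in CHIR-P23 against 7.001 in C8-P7 and 5.98 in A9-P7. Over the list, the median difference was 0.31 for C8-P7 and 0.12 for A9-P7.

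Of 30 neuroepithelial genes, 1 was lower in both colonies (ZIC1) and none was higher (median 0.36 for C8-P7 and 0.12 for A9-P7), near the 1.83% and 0.367% of all genes. Without the 2-fold limit, 18 of them lay above and 5 below CHIR-P23 in both colonies. PAX6 was at 16.6 and 16.8 FPKM in CHIR-P23 against 32.5 and 32.6 in C8-P7 and 33.4 and 33.7 in A9-P7, just short of 2-fold, and SOX3 at 36.7 FPKM in CHIR-P23 against 75.4 in C8-P7 and 65.1 in A9-P7. SOX2, which is both a NESC factor and one of the retroviral genes, was at 97.8 FPKM in CHIR-P23 against 81.3 in C8-P7 and 87.1 in A9-P7. NES, which encodes nestin, was at 332 FPKM in CHIR-P23 against 411 in C8-P7 and 256 in A9-P7. LIN28A, an RNA-binding protein, was at 266 FPKM in CHIR-P23 against 285 in C8-P7 and 271 in A9-P7. FPKM of SOX2, POU5F1 and KLF4 can include transcripts of the rhesus transgenes, which these values do not separate from those of the genes in place.

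**Figure D4:**
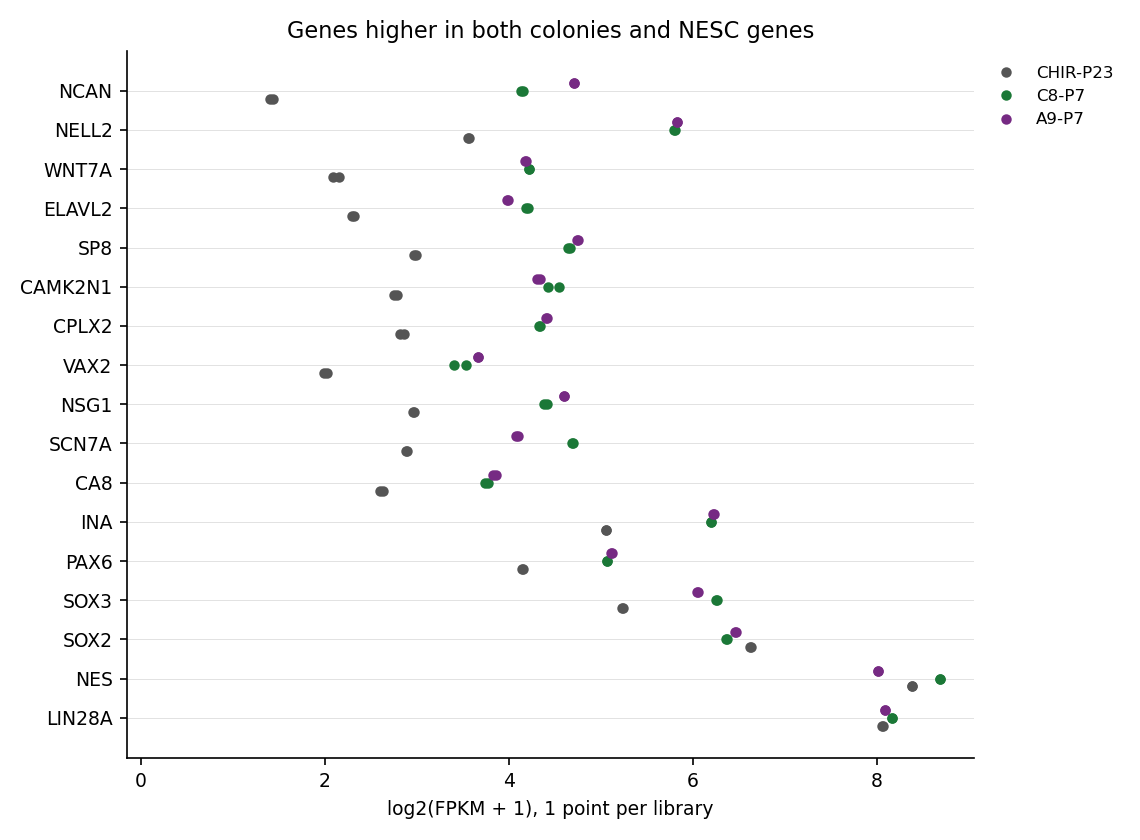
Log2(FPKM + 1) (x axis) of 12 genes higher in both colonies (NCAN to INA) and 5 NESC genes (PAX6 to LIN28A), with 1 point per library of CHIR-P23 (grey), C8-P7 (green) and A9-P7 (purple). The colony libraries lie to the right of the parental ones from NCAN to SOX3, and for SOX2, NES and LIN28A the 3 lines lie close together.

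KLF4 was lower in both colonies, with 6.81 and 6.85 FPKM in CHIR-P23 against 0.194 and 0.193 in C8-P7 and 1.46 and 1.42 in A9-P7. POU5F1 went in opposite directions, with 74.4 and 74.98 FPKM in CHIR-P23 against 14.3 in both libraries of C8-P7 and 297 and 299 in A9-P7. C8-P7 was thus the lowest and A9-P7 the highest of the 3 lines. Opposite differences of at least 2-fold were also seen for NDN, an imprinted gene of neurons (24.4 FPKM in CHIR-P23 against 62.6 in C8-P7 and 0.960 in A9-P7), FGF13, an intracellular FGF homologue (10.3 FPKM in CHIR-P23 against 22.1 in C8-P7 and 0.493 in A9-P7), IRX1, a patterning factor (2.14 FPKM in CHIR-P23 against 8.89 in C8-P7 and 0.221 in A9-P7), and TPM2, a tropomyosin (60.2 FPKM in CHIR-P23 against 162 in C8-P7 and 29.2 in A9-P7). Of the 10 opposite genes with a chromosome in RefSeq (assembly T2T-MMU8v2.0), 4 were on X, where 3.85% of the genes tested with a chromosome lie. With so few genes this is a count and not a result about X.

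In several large lists no gene was shared, which is near the background, since 0.367% of all genes were higher and 1.83% lower in both colonies. None of 38 cell cycle genes (median 0.015 for C8-P7 and -0.07 for A9-P7), none of 73 ribosomal protein genes (-0.0038 for C8-P7 and 0.071 for A9-P7), none of 22 genes of cholesterol synthesis (-0.04 for C8-P7 and -0.21 for A9-P7), none of 19 NOTCH genes (0.041 for C8-P7 and -0.103 for A9-P7) and none of 27 heterochromatin and polycomb genes (0.078 for C8-P7 and 0.058 for A9-P7) differed by 2-fold in the same direction in both colonies. PCNA, the sliding clamp of replication, was at 574 FPKM in CHIR-P23 against 591 in C8-P7 and 514 in A9-P7. One locus of the cell cycle inhibitors outside the list, LOC709988, which RefSeq names CDKN2A, was lower (3.01 FPKM in CHIR-P23 against 0.343 in C8-P7 and 0 in A9-P7). It was chosen after its values were seen. The chromosome medians over the 21 chromosomes with at least 100 genes lay between 0.0082 and 0.076 in C8-P7 and between -0.027 and 0.068 in A9-P7. Chromosomes with fewer genes were not compared.

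The 4 earlier lines, which the choice of genes did not use, show where the shared genes had been high. The lower genes had a median of 13.5 FPKM in the fibroblasts, 19.2 on day 5, 20.3 on day 11, 8.68 at passage 6 and 4.65 in CHIR-P23, against 0.276 in C8-P7 and 0.220 in A9-P7. Over all genes tested, the median stayed between 11.2 and 11.95 FPKM in the 7 lines. Of the lower genes, 183 (78.2%) had their highest level before passage 6, 45 (19.2%) had it at passage 6 and 6 in CHIR-P23. Over all genes tested these shares were 48.1%, 9.25% and 7.5%, and for 35.1% a colony was the highest. That cannot occur among the lower genes. The shares are thus not directly comparable, and they do not show that the lower genes peaked earlier than others. In RF-P3, 128 of the lower genes (54.7%) were at 10 FPKM or more, against 54.4% of all genes tested. S100A6 lay far above the medians of the lower genes, with 1973 FPKM in the fibroblasts, 3820.3 on day 5 and 61.6 at passage 6. It was at 65.2 FPKM in CHIR-P23 before the values under 1 FPKM in the colonies. HOXA9 took another course, with 8.02 FPKM in RF-P3 and 30.4 in CHIR-P6. SPP1 had been highest on day 11, at 2456 FPKM, and low in RF-P3, at 4.38 FPKM.

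**Figure D5:**
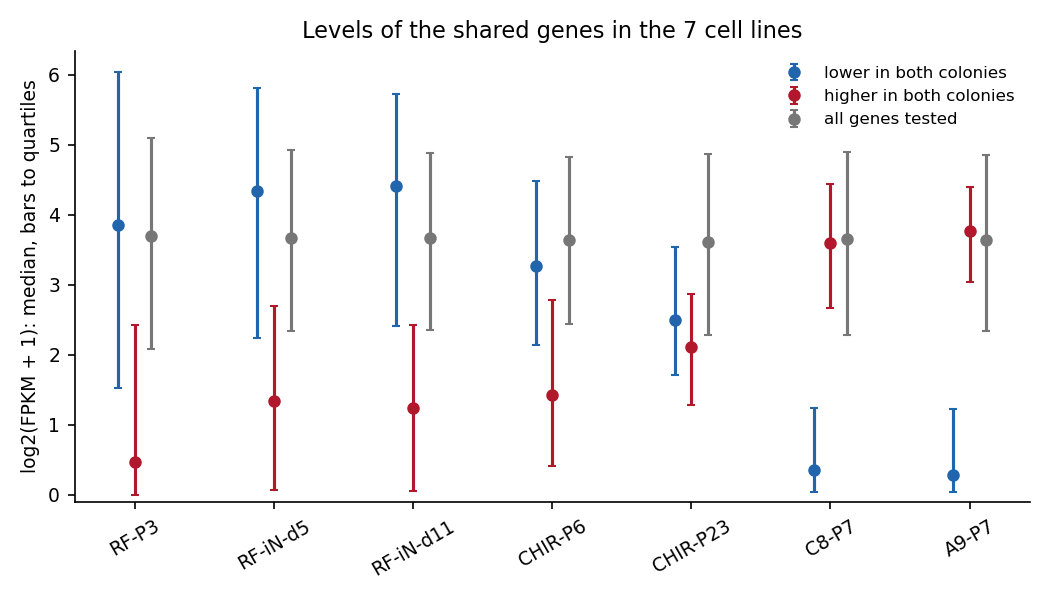
Median log2(FPKM + 1) (y axis, bars to the quartiles over genes) of the 234 genes lower in both colonies, the 47 higher ones and all 12805 genes tested, in the 7 cell lines (x axis). The lower genes go from 20.3 FPKM in RF-iN-d11 to 4.65 in CHIR-P23 and under 0.3 in both colonies, while the median of all genes hardly moves. The differences between CHIR-P23 and the colonies in the lower and higher genes follow from how these genes were chosen.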

How the data were processed

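Total RNA of each cell line had been sequenced after removal of ribosomal RNA. The deposited values are FPKM per gene. For these the submitters' processing notes name the aligner HISAT2 (2.1.0), Cufflinks (2.2.1), its tool Cuffnorm (2.2.1) and the build Mmul_8.0.1. Fragment counts were not used here, so depth is known only in relative terms, and an exact 0 in such a table can be a failed estimate.

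Values of 28445 of 33737 loci stood 1 position below their label and were moved back, and 49 labels were left out. After this, 66 of 69 ribosomal protein genes of the stretch had 100 FPKM or more in CHIR-P23, against 2 as deposited. Pairs of libraries were checked over 3656 genes whose FPKM were whole multiples of a step (within 0.1 of a step, or 2% of the multiple). Their squared difference over their sum was 0.104 to 0.135, against 0.986 for simulated independent pairs, so pairs were averaged. The FPKM of the 6 libraries summed to between 571041 and 589605. The p-values measure the spread between 2 colonies of 1 conversion.

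Genes that reached 1 FPKM in at least 2 of the 6 libraries were compared on log2(FPKM + 1), and tested with limma 3.58.1 in R 4.3.3 (intensity trend, Benjamini-Hochberg adjustment, adjusted p under 0.05 and 2-fold). On simulated data for this fit, 98.1% of changes of log2 1.5 were recovered in 12805 genes, with 10.5 false calls per run. The simulation gave genes of similar level a similar spread. In the real data the spread between the colonies differed widely among such genes, so this recovery does not carry over to them. Members and the gene lists were chosen with earlier results of these data known. Where a symbol has several loci, the one with the highest mean was used for a list. Lists were matched by symbol, so loci with a LOC number were not counted in them. Named genes were the 12 largest shared differences in each direction of at least 10 FPKM on the higher side with no LOC number, up to 4 shared genes and the highest one per list, all genes of lists with few tested genes, the retroviral factors and genes in opposite directions. Other named genes were chosen after their values were seen, and a few that met the rule are not reported here. Chromosomes and names of LOC loci were taken from RefSeq (T2T-MMU8v2.0). Alternatives were other pseudocounts, filters, scalings and limits, single libraries left out and libraries as samples. Tables and figures were made with Python 3.11.15, pandas 2.3.3, NumPy 2.4.6 and Matplotlib 3.10.9.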

Additional observations from a re-analysis of the deposited data

Results flagged for a closer look

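Of the 13 genes that differed from CHIR-P23 by at least 2-fold in opposite directions in the colonies, 12 are listed here, with the difference of C8-P7 minus A9-P7 on log2(FPKM + 1). With 1 sample per colony, none of these differences was tested. It was -4.29 for POU5F1, 5.02 for NDN, 3.95 for FGF13, 3.02 for IRX1 and 2.43 for TPM2. It was 3.54 for POU3F4, a neural POU-domain factor at 10.7 FPKM in C8-P7 and listed at 0 in A9-P7. It was -2.72 for SPON2, a secreted matrix protein, and -2.28 for VAT1L, at 23.4 FPKM in CHIR-P23 against 10.6 in C8-P7 and 55.4 in A9-P7. It was -3.37 for LOC694923, which RefSeq names DACH2. Among loci with no gene name, it was -3.29 for LOC106994434, -2.26 for LOC106994533 and 2.46 for LOC106992485.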

How the results depend on the processing

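No alternative reversed the direction of a named gene that differed by 2-fold. Pseudocounts and filters cannot change a direction, and leaving out a library of a pair that shares its noise hardly changes an average. This outcome was thus largely fixed in advance and gives no support. The counts of shared genes depend on how low values are treated. With a pseudocount of 0.1, 167 genes were higher and 334 lower, all 281 reported ones among them, and with a pseudocount of 5, 12 were higher and 75 lower. A filter at 5 FPKM left 37 higher and 115 lower. A 1.5-fold limit gave 275 and 429, and a 3-fold limit 11 and 112. With at least 10 FPKM on the higher side, added after seeing the data, 22 and 62 were left, and without the LOC loci 37 and 196. With 1 library left out, 44 to 48 were higher and 232 to 237 lower, and limma called 0 higher and 0 lower each time. Requiring all 4 colony libraries beyond both parental ones removed no gene. Libraries of a pair differ by less than sampling noise, so neither this check nor leaving out a library could move the counts much. Neither stands for replication. Quantile scaling gave 55 and 224, with 258 of the 281 again. limma called 4 lower genes with a pseudocount of 5 and 1 with the 5 FPKM filter. With the 6 libraries as samples it called 82 higher and 283 lower genes, or 69 and 259 with the replicate block. The pairs share their noise, so those calls rest on too small a spread. Between lines, the differences between the libraries of a pair correlated at -0.024 to 0.028. Since these differences are below sampling noise, this cannot show whether the replicate numbers paired the lines. The span of the chromosome medians was 0.068 in C8-P7 and 0.095 in A9-P7, with the 5 FPKM filter 0.081 and 0.11, and with quantile scaling 0.077 and 0.078.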
